A study of Mus musculus with 12 samples.

Results

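Fc gamma receptors are the cell-surface proteins with which macrophages, microglia and other leukocytes bind the constant part of IgG. Their mRNAs were followed here in the lumbar spinal cord of healthy mice and of mice that model amyotrophic lateral sclerosis (ALS). The 5 genes were chosen by name: Fcgr1, Fcgr2b, Fcgr3 and Fcgr4, which encode the mouse IgG-binding chains, and Fcer1g, which encodes the common gamma chain. They are 5 of the 33906 gene identifiers in the tables, each was found once, and 5 of 5 passed the filter on low values.

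Fcgr1, the high-affinity receptor, Fcgr3 and Fcgr4 are activating receptors. They have no signalling motif of their own and pair with Fcer1g, whose immunoreceptor tyrosine-based activation motif (ITAM) is phosphorylated by Src-family kinases when bound IgG clusters the receptors, and then docks the kinase Syk. Fcgr2b is the inhibitory receptor: its own inhibitory motif (ITIM) recruits the lipid phosphatase Inpp5d and dampens the same pathway. In the central nervous system these receptors are known from microglia and from macrophages at its borders.

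The study measured bulk poly(A)-selected RNA of the lumbar cord of 12 mice, with 3 mice in each of 4 groups. Group H was healthy wild-type mice. Group P was ALS model mice fed phosphate-buffered saline (PBS), group C was ALS model mice given manganese-doped carbon dots (Mn@CDs), and group E was read as ALS model mice given edaravone, a free-radical scavenger used as an ALS drug, because the submitters describe that drug under another letter and leave the letter E without a description. P, C and E therefore share the ALS model; the sources used here give neither its transgene or allele nor the strain, age, sex or dose. Libraries are named by group letter and mouse number (H1, P66).

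Values are the authors' FPKM, fragments per kilobase of transcript scaled to a total for each library, so they can be compared between genes as far as the gene lengths used are right. The reads behind them, recovered from the steps in which low FPKM values occur, came to 16.8 to 19.8 M per library. Neuronal, glial and posterior Hox markers were detected, and several libraries stood apart in what else they held. Skeletal muscle markers summed to 2234 FPKM in H1 and to 24.7 in H4, and erythroid markers were highest in H4 (2577) and H1 (1264). Caudal Hox markers were lowest in H4 (3.44), C84 (10.03) and P66 (23.8). Of 6 tested Schwann cell markers, 6 were called higher in E than in H, as were 11% of all genes tested. In bulk tissue, a change in the number of cells of a type and a change in RNA per cell cannot be told apart.

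Fcgr1 lies on mouse chromosome 3, and the other 4 genes lie within 276 kb of each other on chromosome 1 (GRCm38, GENCODE M21). Fcgr2b (ENSMUSG00000026656) spans chr1:170958617-170976547 on the minus strand, Fcgr4 (ENSMUSG00000059089) chr1:171018920-171029761 on the plus strand, Fcgr3 (ENSMUSG00000059498) chr1:171051174-171064935 on the minus strand, and Fcer1g (ENSMUSG00000058715) chr1:171229572-171234365 on the minus strand. Fcgr1 (ENSMUSG00000015947) spans chr3:96282909-96293969 on the minus strand. Fcgr2b and Fcgr3 are close copies in their extracellular exons: 9.58% of the 50-base words of Fcgr3 transcripts also occur in Fcgr2b, and 6.95% of those of Fcgr2b occur in some other gene. The other 3 genes share none. Reads from that stretch could be assigned to either gene or dropped, so the levels of Fcgr2b and Fcgr3 carry this uncertainty. A noncoding gene, Gm38204, overlaps Fcgr2b on the opposite strand, and it held 0 or 1 recovered read in each library.

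The RefSeq table (GRCm38.p6) holds promoter sequence for 5 of 5 genes, and the 3 with a match to the motif GAGGAAG are shown. Fcgr2b and Fcer1g, whose mRNAs were also higher in P than in H, have no such match in the stretch searched. The lines give the stretch from 130 to 10 bases before the start site, 5′ to 3′ on the gene's strand, and for Fcgr3 those of the second of its listed start sites. That Fcgr3 stretch lies inside the GENCODE span given above, so the RefSeq start site used differs from the GENCODE 5′ end. The same holds for the Fcgr2b stretch, which is not shown and includes 47 exonic bases. That of Fcer1g includes 7. Capitals mark CTTCCTC, the reverse complement of GAGGAAG, which is the core of the purine-rich element bound by the myeloid factor PU.1, and in Fcgr1 also TTCCCAGAA, a match to TTCNNNGAA, the palindrome bound by STAT factors.
Fcgr1, chr3:96293979-96294099, minus strand: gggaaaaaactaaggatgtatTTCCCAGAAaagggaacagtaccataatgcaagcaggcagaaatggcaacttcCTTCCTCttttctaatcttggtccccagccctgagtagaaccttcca
Fcgr3, chr1:171059404-171059524, minus strand: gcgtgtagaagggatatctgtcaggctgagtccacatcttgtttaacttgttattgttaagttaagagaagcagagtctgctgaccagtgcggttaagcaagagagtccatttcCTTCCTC
Fcgr4, chr1:171018796-171018916, plus strand: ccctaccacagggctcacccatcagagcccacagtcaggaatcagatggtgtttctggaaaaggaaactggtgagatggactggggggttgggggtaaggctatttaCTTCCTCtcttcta

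GAGGAAG, searched on both strands in the 250 bases before each start site, was found in 3 of the 5 genes, Fcgr1, Fcgr3 and Fcgr4, and in 10.6% of 32851 RefSeq promoter windows of the same length. Its distance from the start site was 56 to 50 bases in Fcgr1, 16 to 10 in Fcgr3 and 23 to 17 in Fcgr4. TTCNNNGAA was found in Fcgr1 alone among the 5 and in 7.02% of all windows. Both motifs were chosen with the sequences in view, and a match describes these letters only.

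In ALS model mice given PBS, each of the 5 mRNAs was higher than in healthy mice: 5 of 5 passed the test (limma on log2(FPKM + 1), two-sided, Benjamini-Hochberg adjusted p under 0.05), where 12.2% of the 18119 genes tested were called higher. The 3 P libraries lay above the 3 H libraries for 5 of 5 genes, which held for 26.4% of genes tested. Mean levels were 5.45-fold (Fcgr1) to 20.7-fold (Fcgr2b) those of H. Summed FPKM of 14 microglial markers, in which C1qa, C1qb and C1qc weigh heavily, was in P 4.41-fold that in H. The part of this sum in the receptor differences was not tested.

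Fcer1g, the signalling partner of the activating receptors, read 4.30, 6.93 and 8.07 FPKM in H1, H2 and H4. It read 55.0, 34.8 and 22.2 in P66, P67 and P74, 36.9, 31.5 and 48.8 in C79, C84 and C85, and 29.4, 22.2 and 30.3 in E75, E77 and E90. The lowest ALS model library, E77, was above the highest healthy one, and the P libraries spread most. For 5 of 5 genes the 9 ALS model libraries lay above the 3 healthy ones, as they did for 14.1% of genes tested. The difference P minus H on the log2(FPKM + 1) scale was 2.31 ± 0.29 (SE, adjusted p = 0.00088).

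Fcgr3, the low-affinity activating receptor, was the most abundant of the 4 IgG-binding chains in 12 of 12 libraries by FPKM. Levels were 5.77, 4.65 and 7.96 in H, 44.0, 35.5 and 23.6 in P, 25.6, 33.1 and 34.9 in C, and 29.8, 27.2 and 41.9 in E, in the library order given for Fcer1g. P74 was the lowest of the 9 ALS model libraries and P66 the highest, and healthy and ALS model libraries did not overlap. P exceeded H by 2.29 ± 0.24 in log2(FPKM + 1), with an adjusted p of 0.000321, the smallest of the family in this comparison.

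Fcgr1, the high-affinity receptor, stood at 0.921, 1.37 and 1.25 FPKM in H and at 8.89, 6.86 and 3.54 in P. It stood at 4.28, 6.35 and 6.66 in C and at 5.79, 4.17 and 9.32 in E. P74 was again lowest among the ALS model libraries, with E90 highest, and the healthy libraries were below each of them. Between 40 and 65 recovered reads underlay a healthy value and 156 to 405 an ALS model value. The log2(FPKM + 1) difference P minus H was 1.70 ± 0.29 (adjusted p = 0.0039).

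Fcgr4, an activating receptor for some IgG subclasses, was the scarcest member. Its healthy levels were 0.190, 0.0434 and 0.276 FPKM and rested on 1 to 6 reads, against 3.55, 2.02 and 0.515 in P, 0.443, 1.08 and 2.10 in C, and 2.73, 1.95 and 3.61 in E, on 10 to 77 reads. C79 and P74 came closest to the healthy libraries without overlapping them. P minus H was 1.24 ± 0.36 in log2(FPKM + 1), with an adjusted p of 0.0379. This call was lost in 9 of 19 alternative analyses: without H1, H2, H4, P66, P67 or E75, with no filter, with only the 2 groups in the fit, and by limma-voom on recovered reads. Without P66 the difference was 0.88 (adjusted p = 0.159).

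Fcgr2b, the inhibitory receptor, had the largest difference between P and H of the family. It read 0.484, 0.594 and 0.559 FPKM in H, 18.5, 10.6 and 4.70 in P, 5.30, 6.87 and 8.61 in C, and 10.1, 6.78 and 12.8 in E. Healthy values lay close together, while the P values differed among themselves more than those of C or E, with P66 highest and P74 lowest. Mean Fcgr2b was 0.546 ± 0.0562 (SD, n = 3) in H and 11.3 ± 6.93 (SD, n = 3) in P. The log2(FPKM + 1) difference was 2.82 ± 0.36 (adjusted p = 0.000933). For Fcgr1, Fcgr2b, Fcgr3 and Fcer1g the P versus H call held in 19 of 19 alternative analyses.

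**Figure D1:**
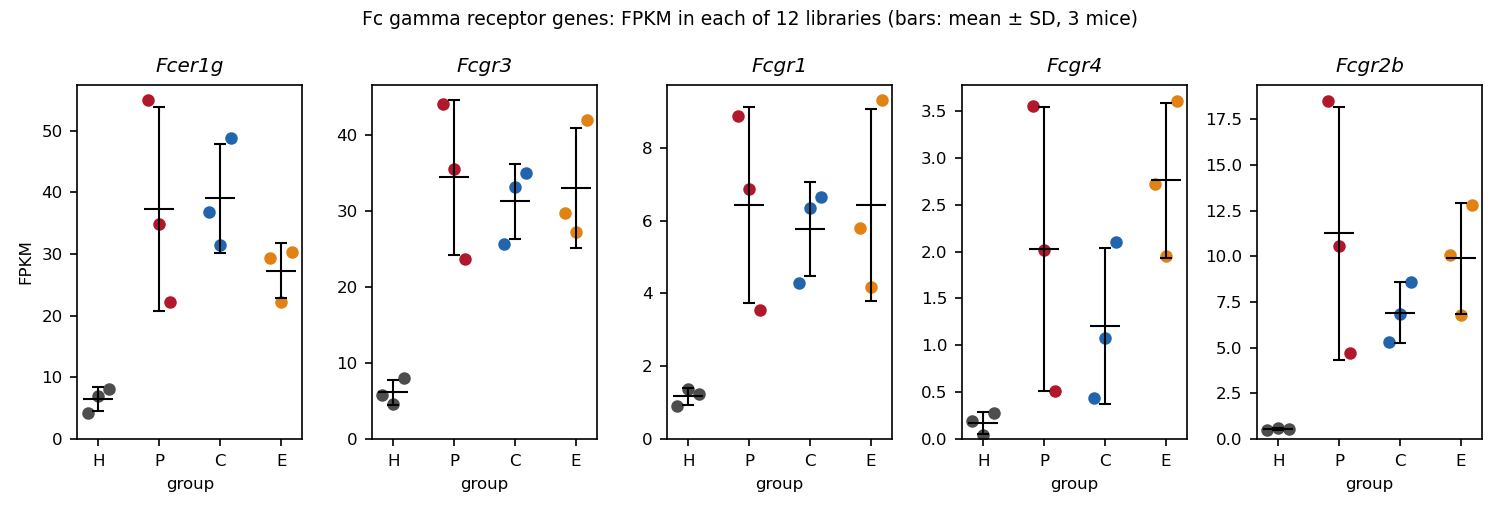
FPKM (y axis, linear, one scale per gene) of Fcer1g, Fcgr3, Fcgr1, Fcgr4 and Fcgr2b in the 12 libraries, by group (x axis: H healthy, P ALS model with PBS, C with Mn@CDs, E read as edaravone); points are mice, and bars are the mean ± SD of 3. For each gene the healthy points lie below the 9 ALS model points, and P spreads widely, for Fcgr2b from 4.70 to 18.5.

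Neither treated group differed from PBS-treated ALS mice in any of the 5 genes by this test. Mn@CDs against PBS gave 0 of 5 called, where 0.00552% of genes tested were called (1 gene), and edaravone against PBS gave 0 of 5, where 0% of genes tested were called. At an unadjusted p under 0.05, 1802 of all genes tested passed in the first comparison and 889 in the second. For 0 of 5 genes did the C libraries lie wholly to one side of the P libraries (17.1% of genes tested), and the same held for E against P (9.01% of genes tested).

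The C minus P differences in log2(FPKM + 1) ran from -0.48 for Fcgr2b (95% confidence interval -1.26 to 0.30) to 0.13 for Fcer1g (-0.51 to 0.77). Fcgr4 was at -0.39 (-1.17 to 0.39), Fcgr3 at -0.10 (-0.62 to 0.42) and Fcgr1 at -0.08 (-0.71 to 0.55). For Fcgr2b the mean in C was 6.93 ± 1.66 FPKM (SD, n = 3), within the range of the P libraries. The adjusted p-values of the 5 genes lay between 0.698 and 0.954.

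The E minus P differences ran from -0.36 for Fcer1g (-0.999 to 0.28) to 0.43 for Fcgr4 (-0.35 to 1.21). Fcgr2b, Fcgr3 and Fcgr1 stood at -0.04 (-0.82 to 0.74), -0.04 (-0.56 to 0.48) and 0.01 (-0.62 to 0.64). Adjusted p-values were at least 0.998 when rounded. The intervals, which are not adjusted for the number of genes tested, reach 0.52 to 0.78 to either side of each difference. With 3 mice a group, a change in log2(FPKM + 1) of that size or larger could go uncalled after adjustment. Fcgr4 in C versus E, at -0.81, was not called (adjusted p = 0.439 by limma). A p above the threshold does not show that the groups were alike.

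**Figure D2:**
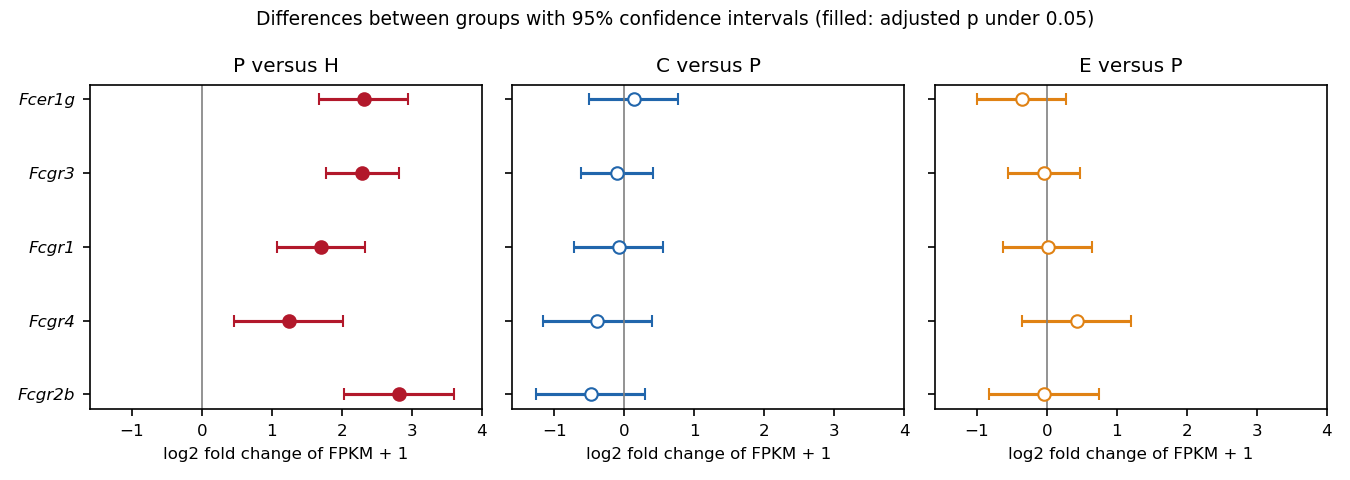
Group differences in log2(FPKM + 1) (x axis) with 95% confidence intervals (bars) for the 5 genes (y axis) in P versus H, C versus P and E versus P; filled points passed an adjusted p of 0.05. The 5 P versus H points run from 1.24 to 2.82 and are filled, while the points of the treatment comparisons are open and lie between -0.48 and 0.43.

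Against healthy mice, the same H libraries being the reference in each comparison, 4 of 5 genes were called higher in C (7.25% of genes tested) and 5 of 5 in E (11% of genes tested). Fcgr4 was the gene not called in C, at 0.85 ± 0.36 in log2(FPKM + 1) (adjusted p = 0.160), and in E it stood at 1.67 ± 0.36 (adjusted p = 0.0114). Without E90 the E versus H value of Fcgr4 was 1.51 (adjusted p = 0.0517). With the 3 ALS model groups averaged, 5 of 5 genes were called higher than in H (16.4% of genes tested), by 1.25 (Fcgr4) to 2.64 (Fcgr2b). Without H2, Fcgr4 in that comparison was at 1.17 (adjusted p = 0.0688).

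The 2 treated groups were also set against each other. None of the 5 genes was called between C and E (0.171% of genes tested), by limma. Fcer1g was the one gene whose libraries did not overlap, at 31.5 to 48.8 FPKM in C and 22.2 to 30.3 in E, and 6.61% of genes tested had C wholly above E. That difference was 0.49 ± 0.29 in log2(FPKM + 1) (adjusted p = 0.570). Fcgr4 lay on the other side, at -0.81 ± 0.36 (adjusted p = 0.439), with overlapping libraries.

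The family's make-up also differed between healthy and ALS model libraries. Fcgr1 exceeded Fcgr2b in 3 of 3 healthy libraries, and Fcgr2b exceeded Fcgr1 in 9 of 9 ALS model libraries. The ratio of Fcgr2b to Fcgr1 FPKM was 0.433 to 0.525 in H, 1.33 to 2.08 in P, 1.08 to 1.29 in C and 1.37 to 1.74 in E. Such an order between genes depends on the gene lengths behind FPKM, but the shift of the ratio between libraries does not. No test is given for ratios within the family.

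As a share of the summed FPKM of the 4 IgG-binding chains, Fcgr2b made up 5.57% to 8.92% in H and 14.5% to 24.7% in the ALS model libraries. Fcgr3 made up 69.9% to 79.2% in H and 58.7% to 73.0% in the ALS model. Both the lowest Fcgr3 share and the highest Fcgr2b share were in P66. For Fcgr3, unlike Fcgr2b, the healthy and ALS model ranges overlapped. The words that Fcgr2b and Fcgr3 share may have moved reads between them in either direction.

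**Figure D3:**
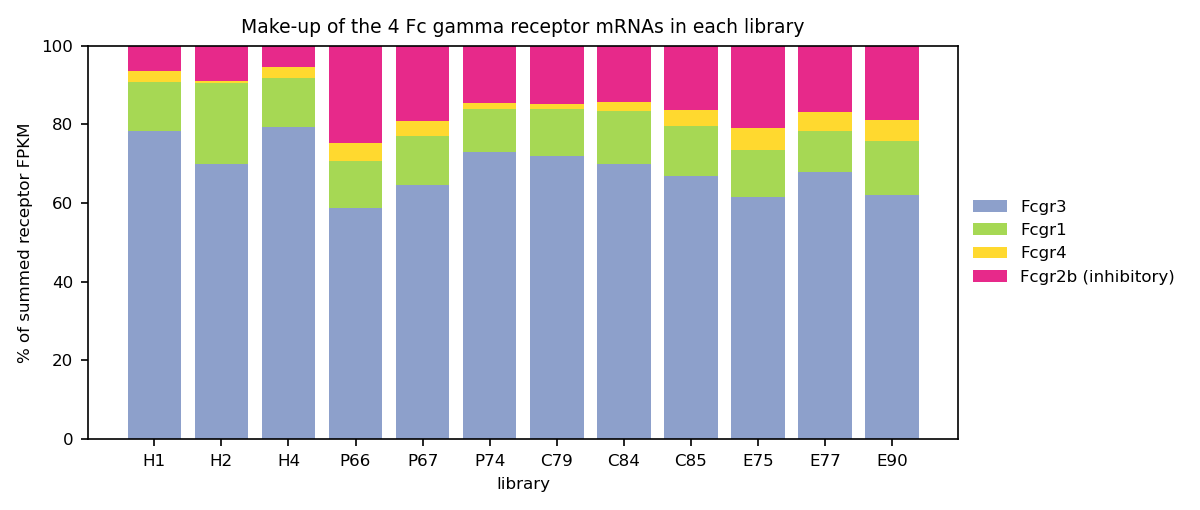
Percent of the summed FPKM of the 4 IgG-binding chains (y axis) taken by Fcgr3, Fcgr1, Fcgr4 and Fcgr2b in each of the 12 libraries (x axis), as stacked bars. Fcgr3 is the largest part in each library, and the Fcgr2b part is 5.57% to 8.92% in the H libraries and 14.5% to 24.7% in the others.

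Activating over inhibitory receptor mRNA was summarised as the log2 ratio of the summed activating receptors to Fcgr2b, with 1 FPKM added to each. Signalling itself was not measured. It was 2.44 ± 0.30 in H, 1.95 ± 0.39 in P, 2.31 ± 0.09 in C and 1.99 ± 0.16 in E (SD, n = 3 each). With nothing added the values were 3.76 ± 0.37, 2.08 ± 0.48, 2.47 ± 0.12 and 2.11 ± 0.19, so the drop from H is deeper without the added 1, which weighs on Fcgr2b at its healthy level. On the first scale the H range, 2.15 to 2.75, overlapped those of P (1.56 to 2.33) and C (2.22 to 2.40) and not that of E (1.82 to 2.14). With nothing added, H (3.35 to 4.08) lay above P (1.61 to 2.56), C (2.34 to 2.56) and E (1.92 to 2.30). The ratio of Fcer1g to Fcgr2b, on the first scale, was 2.05 to 2.59 in C and 1.18 to 1.57 in E. In P it was 1.52 to 2.02, which lay below C and overlapped E. With nothing added, P (1.57 to 2.24) overlapped both C (2.20 to 2.80) and E (1.24 to 1.71).

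Among the other Fc receptors, 14 were listed and 6 were expressed enough to test. In P against H 3 rose: Fcrls, an Fc receptor-like gene of microglia, by 3.24 ± 0.25 in log2(FPKM + 1) (adjusted p = 8.85e-05), Trim21, a cytosolic antibody receptor, by 0.70 ± 0.20 (adjusted p = 0.0348), and Fcgrt, the neonatal Fc receptor that recycles IgG, by 0.48 ± 0.14 (adjusted p = 0.0359). The list's median difference was 0.35, against 0.07 for all genes tested, of which 12.2% were called higher.

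Of 15 immunoglobulin and pentraxin genes listed, 6 were tested and 1 rose: Ptx3, a pentraxin, from 0.307 ± 0.0613 to 2.75 ± 0.993 FPKM (SD, n = 3), a difference of 1.48 ± 0.20 in log2(FPKM + 1) (adjusted p = 0.00106). The share called higher over all genes tested was 12.2%. Ighm, the IgM heavy chain, was at 29.9 ± 7.55 FPKM in H and 22.5 ± 2.83 in P and was not called (adjusted p = 0.208). These mRNAs say nothing of IgG protein that reaches the cord from blood.

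Of the receptors other than Fc gamma receptors that pair with Fcer1g, 2 were tested, and neither was called in P versus H. Clec4d, a C-type lectin receptor of myeloid cells, was at 0.327 ± 0.0390 FPKM in P and 1.78 ± 0.724 in E (SD, n = 3), with the E libraries above the P libraries, and the difference of 1.04 ± 0.21 in log2(FPKM + 1) had an adjusted p of 0.235. Against H, Clec4d was called higher in E, by 1.36 ± 0.21 (adjusted p = 0.00236 by limma), as were 11% of genes tested. With the ALS model groups averaged, Clec4d was called higher by 0.69 ± 0.17 (adjusted p = 0.0163), as were 16.4% of genes tested. Oscar, the osteoclast-associated receptor, was at 2.02 ± 0.343 FPKM in H and 2.21 ± 0.237 in P. Among 5 tested signalling adaptors related to Fcer1g, 2 rose in P, where 12.2% of all genes tested were called higher. They were Tyrobp, the ITAM-bearing DAP12 adaptor of Trem2, by 2.81 ± 0.41 and Hcst, the DAP10 adaptor, which has no ITAM, by 0.62 ± 0.17 (adjusted p = 0.0021 and 0.0313).

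Below the receptors, 6 of 9 kinases rose in P against H and none fell, where 12.2% of all genes tested were called higher. Lyn, a Src-family kinase that phosphorylates both ITAM and ITIM, rose by 1.63 ± 0.21 in log2(FPKM + 1), Tec by 1.34 ± 0.20 and Syk by 0.85 ± 0.14. Of 21 adaptors and effectors, 12 rose and none fell, among them the adaptor Lat2 (1.38 ± 0.17), the exchange factor Vav1 (1.32 ± 0.17) and Lcp2, known as SLP-76 (1.23 ± 0.18). Of 21 genes of the phagocytic actin machinery, 9 rose and none fell, led by the myosin Myo1f (2.17 ± 0.21), Dock2 (1.32 ± 0.17) and Arpc1b of the Arp2/3 complex (1.74 ± 0.25).

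Genes of the inhibitory side also rose, where 12.2% of all genes tested were called higher in P versus H. Of 18 phosphatases and ITIM receptors, 12 rose and none fell, including Ptpn6, the phosphatase SHP-1, by 1.96 ± 0.22, Lair1, a collagen receptor, by 1.15 ± 0.14, and Sirpa, the receptor for Cd47, by 0.94 ± 0.12. The median differences in P versus H were 0.99 for the kinases, 0.49 for adaptors and effectors, 0.34 for the actin genes and 0.72 for the inhibitory genes, against 2.29 for the 5 receptor genes. The added 1 understates changes of low genes, so these medians also depend on level. Syk, at mean FPKM of 0.605 in H and 1.92 in P, was 3.17-fold by means. In these 4 lists, 0 genes were called in C versus P and 0 in E versus P.

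**Figure D4:**
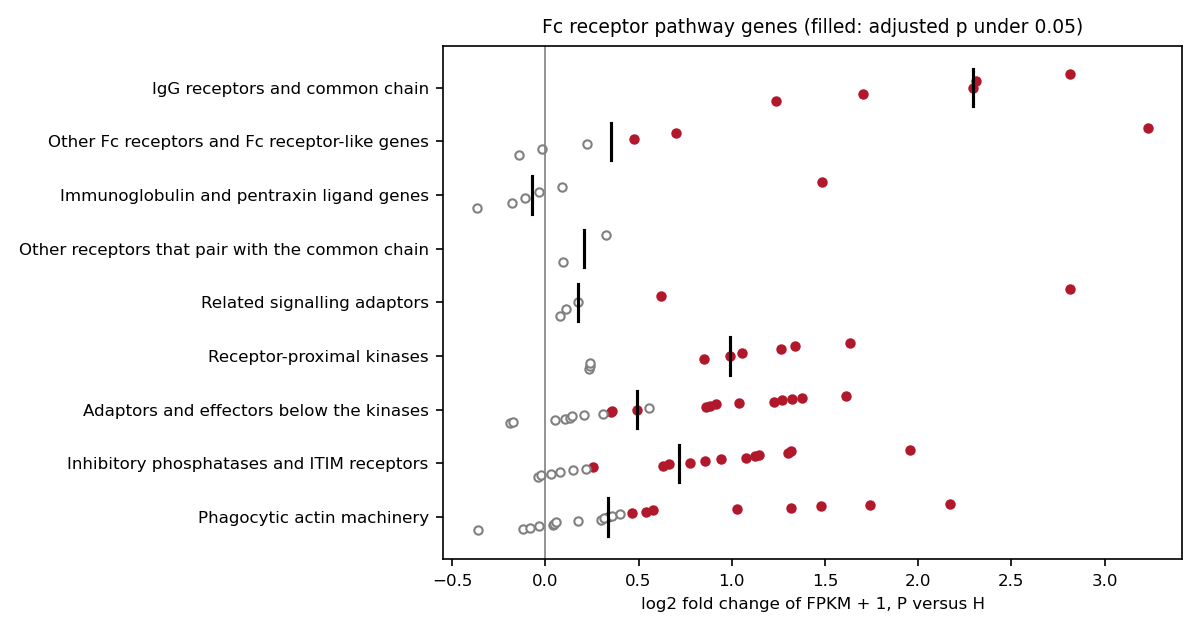
Difference in log2(FPKM + 1) between P and H (x axis) of each tested gene, by pathway list (y axis); filled points passed an adjusted p of 0.05 and black bars are list medians. The median of the IgG receptors and common chain is 2.29, with those of the other lists between -0.07 and 0.99. The added 1 understates changes of low genes.

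Markers of the cells that could carry these receptors were read in the same libraries. Of 14 microglial markers, 13 rose in P against H (12.2% of all genes tested), with a median of 1.59 in log2(FPKM + 1). Their summed FPKM was 168 to 212 in H, 516 to 1073 in P, 644 to 849 in C and 478 to 781 in E, with P66 highest and P74 lowest in P, the same order as for the 5 receptor genes. Border-associated macrophage markers summed to 2.43 to 4.86 in H, 5.13 to 9.84 in P, 8.11 to 11.9 in C and 8.93 to 18.5 in E, with 1 of 9, Ms4a7, called in P versus H. The 6 monocyte markers, 6 tested neutrophil markers and 5 tested B and plasma cell markers gave 0 calls in P versus H, and 1 of 2 tested NK and T cell markers, Cd8a, was called.

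Divided by that microglial sum, Fcgr2b stood farthest above its healthy level. C1qa, C1qb and C1qc weigh heavily in the sum, at 304, 270 and 121 of 1073 FPKM in P66. In H1 they read 32.4, 29.1 and 14.3 of 168, so the folds depend on which markers are summed. Per 100 FPKM of microglial markers, the mean in P over the mean in H was 1.20-fold for Fcgr1, 1.30-fold for Fcgr3, 1.30-fold for Fcer1g, 2.51-fold for Fcgr4 and 4.32-fold for Fcgr2b. Fcgr2b per 100 microglial FPKM was 0.263 to 0.353 in H and 0.809 to 1.73 in the 9 ALS model libraries, with no overlap. Fcgr3 did not overlap either, at 2.77 to 3.75 in H and 3.81 to 5.69 in the ALS model, while Fcgr1, Fcgr4 and Fcer1g did. The share of all genes without overlap on this scale was not computed. In E the mean over that in H was 4.85-fold for Fcgr2b and 4.57-fold for Fcgr4. These are descriptions without a test, and the summed border macrophage markers were also higher in the ALS model libraries, as given above, and their part was not tested.

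The genes whose profiles over the 12 libraries lay nearest were found by the mean absolute difference of log2(FPKM + 1) after centring each gene. For Fcgr3 they were C3ar1 (0.0998), the receptor for complement C3a, and Cd84 (0.120), a SLAM-family receptor of leukocytes. For Fcer1g they were Ly86 (0.129) and Trem2 (0.153), the lipid-sensing receptor that signals through Tyrobp. For Fcgr1 they were Ctsc (0.105), the protease cathepsin C, and Slc15a3 (0.118), a lysosomal peptide transporter. For Fcgr2b they were Timp1 (0.188), a metalloproteinase inhibitor, and Apobec1 (0.191), an RNA-editing cytidine deaminase. Fcgr4 lay nearest to Sfrp5 (0.185) and Trim30d (0.190), and Sfrp5 itself missed the threshold in P versus H (adjusted p = 0.0502). Mean FPKM in H and P was 5.27 and 11.6 for Sfrp5 and 0.170 and 2.03 for Fcgr4. The added 1 understates changes of low genes, so distances that involve Fcgr4 depend on it. Within the family Fcgr1 and Fcgr3 were closest (0.223) and Fcgr4 and Fcer1g farthest apart (0.595).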

How the data were processed

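The deposited values are FPKM per gene and library, one table for each group; the tools named in the submitters' processing notes are cutadapt, HISAT2 and featureCounts, with the build GRCm38; versions and the strand setting: not given in the sources used here. The authors' unit was read from the values: with GENCODE M21 exon lengths, 95.2% to 95.6% of low FPKM values (up to 50 reads) were whole reads within 0.02, and 1 read in 1 kb was worth 0.0542 to 0.0643 FPKM. Of 33906 identifiers 33829 matched the annotation.

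Genes with at least the CPM of 10 recovered reads in 3 libraries and 15 reads in all were tested (18119), and 15787 were set aside. Values were tested as log2(FPKM + 1) with limma 3.58.1 in R 4.3.3: 4 group means over 12 libraries, mean-variance trend, robust moderation, 8 residual degrees of freedom, Benjamini-Hochberg adjustment within each comparison. The added 1 understates changes of low genes. The fit was also run on simulated reads for C versus P, with a single fixed spread and changes placed only in genes with many reads. That simulation does not speak to genes as low as Fcgr4.

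The 5 genes, the pathway and marker lists and the tests were chosen with earlier results of these data known. Named list genes are the 3 of smallest adjusted p in P versus H. Per the labels, each library is a separate mouse.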

Additional observations from a re-analysis of the deposited data

How the results depend on the processing

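No paired analysis was possible because no mouse number is shared between groups. Fcgr4 in P versus H kept its direction but not its call with no filter (1.24, adjusted p = 0.0935), with only the 2 groups compared (1.24, adjusted p = 0.0719) and by limma-voom on recovered reads (3.32, adjusted p = 0.0526). With single libraries left out it was 0.88 to 1.67, and its adjusted p over these settings ran from 0.00394 to 0.159. The number of all genes called in P versus H, 2807 as reported, was 1444 with no filter, 1471 with only the 2 groups and 933 (without P66) to 3535 with a library left out, with 1122 without H2 and 1272 without P67. In C versus P, 0 genes were called with 0.1 added in place of 1, by limma-voom or with caudal Hox level as a covariate, 2 with median-ratio scaling, 4 with a 0.5 FPKM filter, 5 with no filter and 0 to 2 with a library left out (2 without P66, E75 or E77). In E versus P it was 3 with no filter, 1 with the 0.5 FPKM filter and 0 to 2 with a library left out (2 without E77). Against H, without H2 and with no filter, 567 and 736 genes were called in C (1505 as reported), 1167 and 1469 in E (2392), and 1555 and 2468 in the averaged ALS model (3734). In C versus E (31 as reported) it was 17 with 0.1 added, 4 with no filter, 4 with only the 2 groups, 0 with caudal Hox level as a covariate and 0 (without C79) to 56 (without E77) with a library left out, with 1 without C85, 8 without H2, 9 without E90 and 15 without E75. The cause of these changes was not tested.

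Uncalled differences changed sign with caudal Hox level as a covariate: Fcer1g in C versus E (-0.20) and in C versus P (-0.23), and Fcgr2b (0.32) and Fcgr3 (0.21) in E versus P. Leaving out single libraries also turned signs. C versus E ran from -0.33 to 0.17 for Fcgr1 and from -0.19 to 0.12 for Fcgr3. C versus P ran from -0.18 to 0.45 for Fcer1g, -0.40 to 0.16 for Fcgr1 and -0.34 to 0.0914 for Fcgr3. E versus P ran from -0.31 to 0.26 for Fcgr1, -0.50 to 0.38 for Fcgr2b, -0.28 to 0.16 for Fcgr3 and -0.0032 to 0.79 for Fcgr4.

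The log2 ratios to Fcgr2b, P minus H, were -1.11 for Fcgr1, -0.52 for Fcgr3, -1.58 for Fcgr4, -0.51 for Fcer1g and -0.48 for the summed activating receptors. With 0.1 FPKM added they were -1.66, -1.48, -1.19, -1.47 and -1.47, and with nothing added, a choice made after seeing the data, -1.80, -1.68, -0.61, -1.67 and -1.68. With a library left out they were -1.26 to -0.94, -0.75 to -0.30, -1.68 to -1.52, -0.70 to -0.35 and -0.67 to -0.29. The average of the ALS model groups uses every group, so it has no fit with only 2. Depth limits Fcgr4 most, at 1 to 6 reads in the healthy libraries.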

Other observations

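The genes around the receptors were read in the same fit. Within 100 kb of the 5 genes 61 other genes are annotated and 25 were tested. In P against H 2 rose, Gm20045 and Cfap126 (0.48 each in log2(FPKM + 1), adjusted p = 0.0190 and 0.0280), Tomm40l of the mitochondrial import pore fell by 0.32 (adjusted p = 0.0472) and 22 were not called. Their median difference was 0.01. Over all genes tested, 12.2% were called higher and the median difference was 0.07.

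Of 9 border-associated macrophage markers, 3 had their E libraries wholly above the P libraries, Mrc1, Ms4a7 and Stab1, and 0 wholly below, where 9.01% of all genes tested did not overlap in either direction. Mrc1, the mannose receptor, was at 0.782 ± 0.383 FPKM in P and 2.18 ± 0.920 in E, and Ms4a7 at 0.881 ± 0.324 and 1.78 ± 0.918 (SD, n = 3). Stab1, a scavenger receptor, ranged from 2.22 to 2.64 in P and from 2.91 to 6.44 in E. None of the 3 was called (adjusted p = 0.409, 0.759 and 0.704 by limma), and they were picked after their values were seen. The same E libraries also held more nerve root RNA than P. Of 6 tested Schwann cell and nerve root markers, 6 had E wholly above P and 0 wholly below. Their list summed to 179 to 253 FPKM in P and 400 to 888 in E. The part of tissue content in the macrophage markers was not tested.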
